A study of Homo sapiens with 20 samples.

Results

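The CDKN2A and CDKN2B locus was taken as a fixed window of 400 kb on hg19 chromosome 9 that holds the whole of MTAP (chr9:21802635-21937650), CDKN2A (chr9:21967751-21995300), CDKN2B (chr9:22002902-22009304) and CDKN2B-AS1 (chr9:21994138-22128102). Its members were all regions that overlapped this window in any peak list, 162 of 790482 regions in all. They were 50 CTCF peaks, 40 H3K4me3 regions and 72 H3K27ac regions. The window was chosen by position, not by any measured value. The study depleted CTCF in LNCaP, an androgen-responsive prostate cancer cell line, and in IMR90, a normal human lung fibroblast line, and mapped CTCF binding and, in LNCaP, 2 histone marks by ChIP-seq. All cells were transfected with 20 nM siRNA and were collected at 144 h. The siRNA was either a non-targeting pool (control siRNA) or a pool against CTCF (CTCF siRNA). For LNCaP the study describes a second transfection, which the control cells had also been through. For IMR90 it names another transfection reagent and does not state a second transfection. There were 2 libraries for each of 10 conditions, which the study describes as biological duplicates. LNCaP CTCF, H3K4me3 and H3K27ac were measured with a standard ChIP protocol, and IMR90 CTCF was measured with the standard protocol and, separately, with a low-cell kit. Each cell line was 1 line and not a panel. A free-text protocol of the standard IMR90 libraries names LNCaP, whereas their titles and cell line tags name IMR90, which was followed here.

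CDKN2A encodes 2 unrelated proteins from different first exons. p16INK4a (p16) inhibits the cyclin D-dependent kinases CDK4 and CDK6, and ARF, read in another frame from an upstream start, binds and inhibits MDM2, a ubiquitin ligase. CDKN2B encodes p15INK4b, a close relative of p16, and CDKN2B-AS1, also called ANRIL, is a long non-coding RNA transcribed away from the ARF start on the opposite strand. MTAP, which salvages methionine from methylthioadenosine, is the neighbouring gene on the side of low coordinates. CTCF is a zinc-finger protein that binds a long, directional motif and, with cohesin, holds chromatin loops and borders. H3K4me3 marks promoters and H3K27ac marks active promoters and enhancers.

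The CTCF peaks of the 12 CTCF libraries fell on 12 merged positions, numbered here S1 to S12 from low to high coordinate. A match to the CTCF core consensus motif, 14 bases long, with at most 2 mismatches on either strand within 100 bp of a peak summit, was found at 7 of them. The matches at 6 of these are shown because they give the letters under the peaks beside MTAP and p15. Each is printed 5′ to 3′ on the strand of the match from the hg19 reference, with 8 flanking bases on each side in lower case and the motif in capitals.
S1, chr9:21789596-21789625, minus strand, intergenic before MTAP: tcttatgaCCAGCAGATGGCACcacttgac
S3, chr9:21813149-21813178, plus strand, intron of MTAP: ctgtggagCCAGCAGGTGGCGAcattggcc
S4, chr9:21814031-21814060, plus strand, intron of MTAP: atatacctCCACAAGATGGCGCcaacatca
S6, chr9:22008752-22008781, minus strand, coding exon of CDKN2B: gggcctcgCCGGCAGGGGGCGCgcgaacgc
S7, chr9:22009579-22009608, plus strand, upstream of CDKN2B: cctaatccCCAGTAGGCGGAGCagaggatt
S9, chr9:22038263-22038292, minus strand, exon of CDKN2B-AS1: acctctctCCTCTAGGTGGCAAactcatac
The match at S1 had 0 mismatches, those at S3, S4 and S6 had 1 each, and those at S5, S7 and S9 had 2 each. The motif lay on the plus strand at S3, S4, S5 and S7 and on the minus strand at S1, S6 and S9. Among control sites, defined as merged peaks present in both control libraries of an experiment, 5 of 6 in LNCaP and 5 of 7 in IMR90 (standard) held the motif. Across the genome 74.5% of LNCaP and 72.3% of IMR90 control sites did, so the locus was near the background. No match was found within these limits at S2, S8, S10, S11 and S12.

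In LNCaP cells with control siRNA, the locus held 6 CTCF control sites, and after CTCF siRNA none of them kept a peak in both libraries. The LNCaP lists gave 7 and 6 peaks in the window with control siRNA and 0 and 1 with CTCF siRNA, 6.5 ± 0.707 against 0.5 ± 0.707 (SD, n = 2 libraries). The groups did not overlap. With 2 libraries a group, an exact two-sided permutation test cannot give a p below 0.33, which was the value here. The whole lists were also shorter, with 3732 and 7736 peaks against 38018 and 46365, and when every list was shortened to the same number of strongest peaks the window held no peak in any of the 4 libraries. No persistent site (a control site that kept a peak in each of its CTCF siRNA libraries) was found among the 6, against 9.26% of the 33413 LNCaP control sites of the genome. At 5 of the 6 neither CTCF siRNA library listed a peak, against 78.6% genome-wide.

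**Figure D1:**
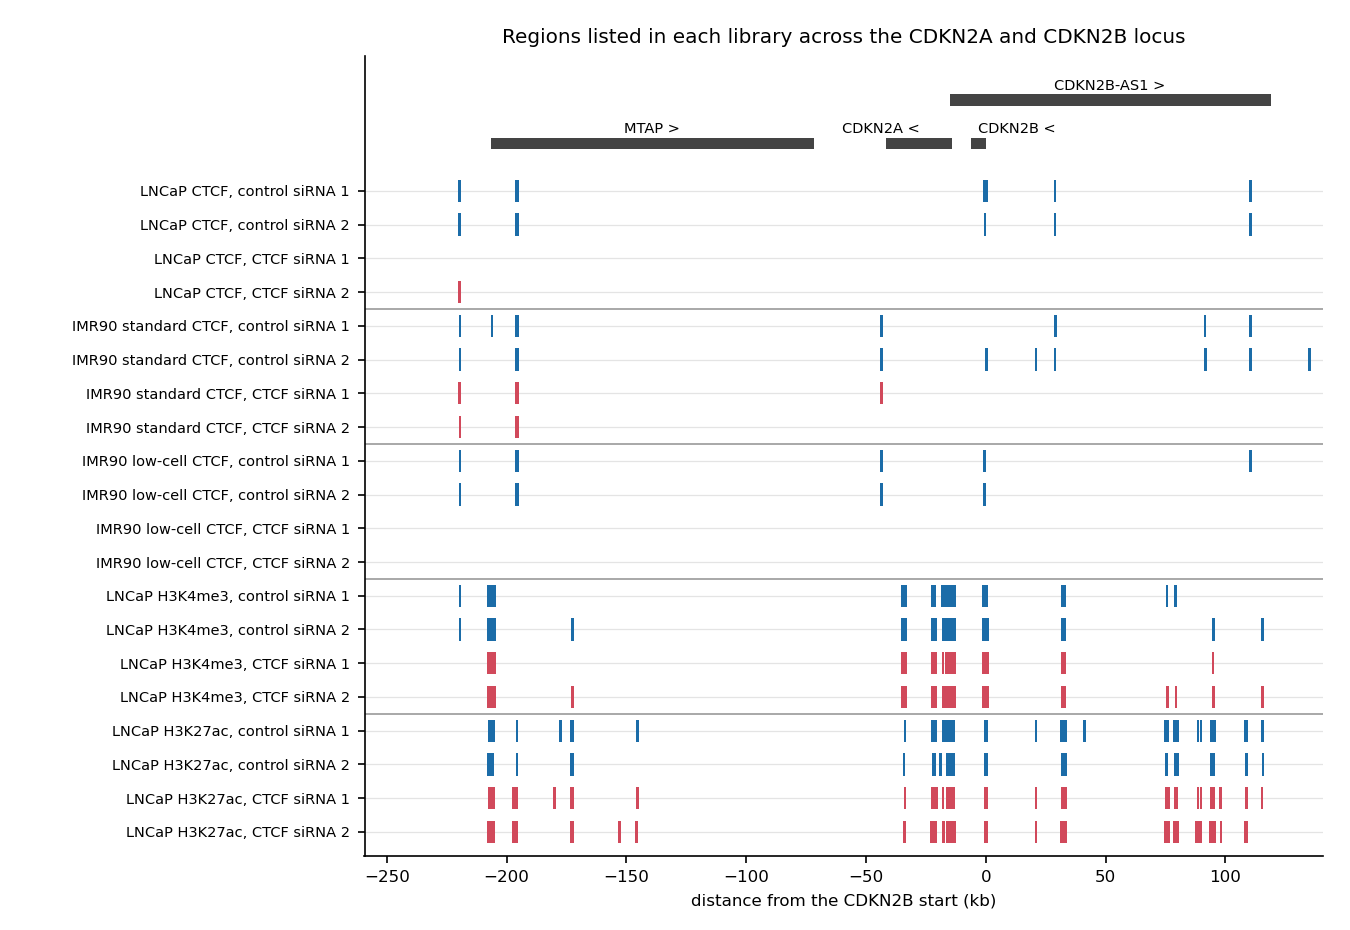
Regions listed in each of the 20 libraries, plotted by distance in kb from the CDKN2B start (negative: towards MTAP), with control siRNA libraries in blue and CTCF siRNA libraries in red. Dark bars are genes, with arrowheads for their strand, and each region is drawn at least 1 kb wide. The LNCaP CTCF rows with CTCF siRNA hold 0 and 1 peaks, and the IMR90 standard rows with CTCF siRNA hold 4 and 3.

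S1 (chr9:21789349-21790149) lay in intergenic DNA, 12995 bp before the MTAP start, and was the only position in the locus with a peak in an LNCaP CTCF siRNA library. Its fold enrichment, the height of a peak over its local background, was 13.1 and 22.4 in the LNCaP control libraries. With CTCF siRNA, replicate 1 had no peak there and replicate 2 had a peak of 7.63. CTCF siRNA replicate 2 also had the longer list and, by the study's own account, more reads than replicate 1. By that account both LNCaP control CTCF libraries also had more reads than CTCF siRNA replicate 1. Replicate 2 of CTCF siRNA had a read number between those of the control libraries, and S1 held its only peak in the window. The part of read depth in the missing peaks was not tested. Without replicate 1, S1 would count as persistent, as 1 of 6 sites, against 20.6% of control sites genome-wide under the same setting.

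S3 (chr9:21812913-21813533) and S4 (chr9:21813630-21814458) lay in the same MTAP intron, 10526 and 11444 bp into the gene, with summits 918 bp apart and motifs on the same strand. S3 was the strongest LNCaP site of the locus, at 21.97 and 27.4 with control siRNA, above 87.3% of LNCaP control sites. S4 measured 11.7 and 13.2. Neither had a peak after CTCF siRNA, so the strongest site of the locus was not the one with a remaining peak.

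S6 (chr9:22008352-22009156) lay over a coding exon of CDKN2B, with the highest summit 537 bp downstream of the CDKN2B start. The LNCaP control libraries disagreed on it. Replicate 1 gave 19.3 with its summit on the motif, whereas replicate 2 gave 3.82 with its summit 179 bp away, and the peaks shared 98 bp. S6 is therefore a control site by overlap and not by a summit distance of 100 bp, and no CTCF siRNA peak was listed there. S7 (chr9:22009403-22009706), 246 bp upstream of the CDKN2B start, had a peak of 8.26 in LNCaP control replicate 1 and none in replicate 2.

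The remaining LNCaP sites were weaker and lay within CDKN2B-AS1. S9 (chr9:22038110-22038453), over an annotated exon, measured 7.32 and 9.49 with control siRNA. S11 (chr9:22119590-22119940), also over an annotated exon, measured 5.42 and 5.21, above only 3.72% of LNCaP control sites. Both were without a peak after CTCF siRNA. In LNCaP no control site lay near the start of p16 (chr9:21974856, minus strand). The nearest was S6, 33911 bp away. S6 was also the nearest to the starts of ARF (chr9:21994391, minus strand) at 14376 bp and of CDKN2B-AS1 (chr9:21995132, plus strand) at 13635 bp. CDKN2B, whose start is at chr9:22009304 on the minus strand, was thus the only one of these genes with an LNCaP control site within 1000 bp of its start, a state found at 10.1% of 19881 protein-coding starts.

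In IMR90 cells measured with the standard protocol, the locus held 7 control sites, of which 3 were persistent. The lists gave 8 and 10 peaks with control siRNA and 4 and 3 with CTCF siRNA, 9 ± 1.41 against 3.5 ± 0.707 (SD, n = 2, exact permutation p = 0.33). The groups did not overlap, but the CTCF siRNA lists were also shorter (19180 and 18539 against 35719 and 36890 peaks). With lists of equal length the counts were 4 and 5 against 4 and 3, which overlap. The persistent share was 3 of 7 against 51.4% of 30523 control sites genome-wide. The persistent sites S1, S3 and S4 were the 3 with the highest mean control fold enrichment in the locus.

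The fold enrichment at these sites did not change alike. At S1 it was 27.9 and 30.4 with control siRNA and 7.81 and 9.40 with CTCF siRNA, 29.5% of the control mean, and the groups were far apart (difference -20.5, exact permutation p = 0.33). At S4 it was 12.6 and 20.8 against 4.55 and 5.52, 30.1% of the control mean, again without overlap (difference -11.7, exact permutation p = 0.33). At S3, 918 bp from S4, it was 16.3 and 23.7 against 17.7 and 14.9, 81.6% of the control mean, and the groups overlapped (difference -3.67, exact permutation p = 0.67). Lower values in both CTCF siRNA than in both control libraries were thus found at 2 of these 3 sites, against 57.3% of persistent IMR90 sites. The median persistent site of the genome kept 72.7% of its control fold enrichment, with quartiles of 52.8% and 98.6%. Fold enrichment was not scaled between libraries, so these percentages describe peak heights over local background.

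**Figure D2:**
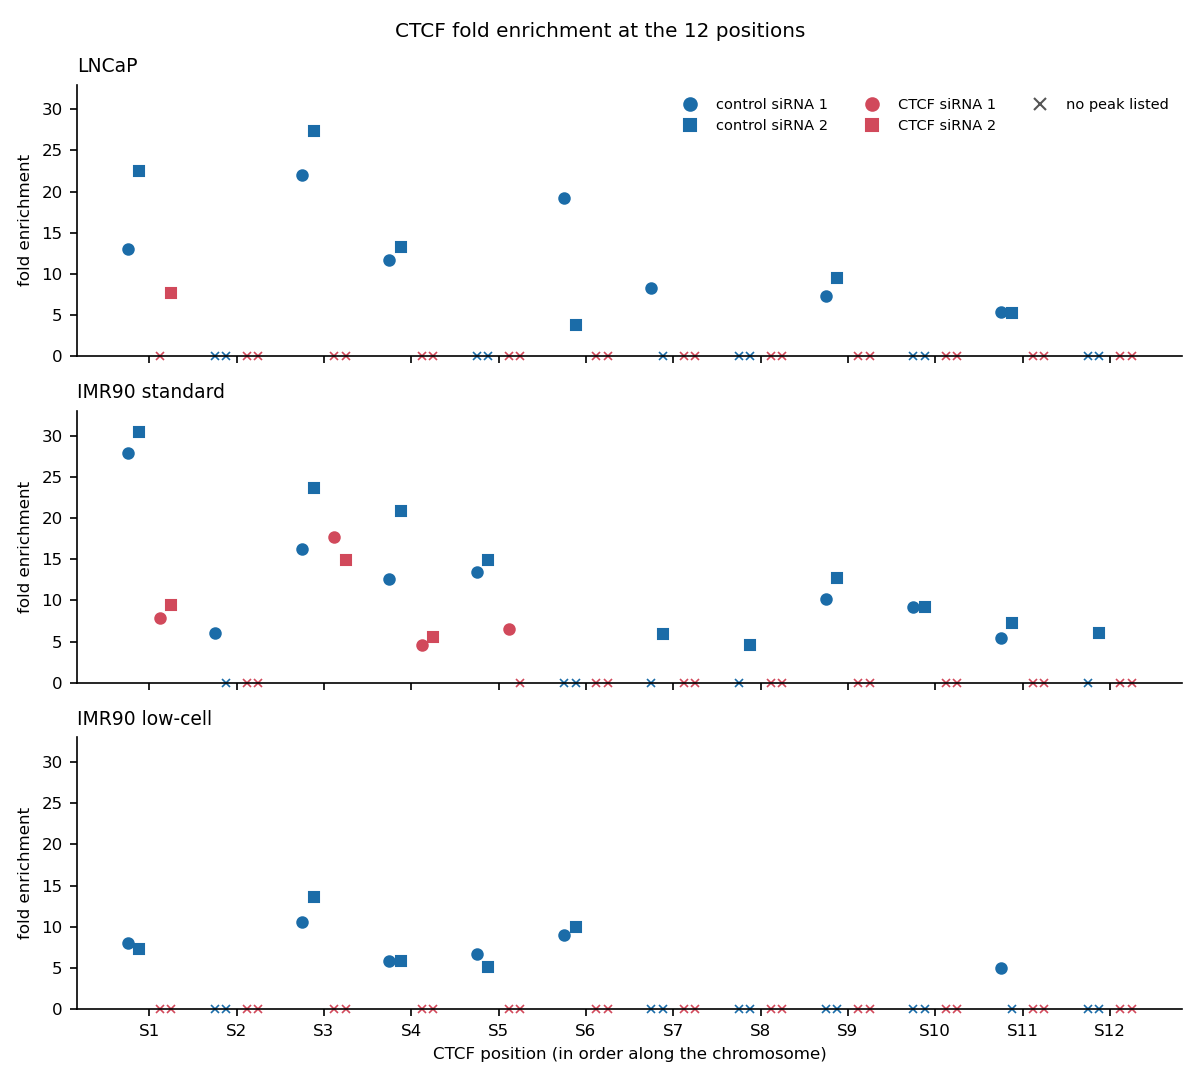
CTCF fold enrichment (y axis, no unit) at the 12 positions, one panel for each experiment, with control siRNA in blue and CTCF siRNA in red, circles for replicate 1 and squares for replicate 2. Crosses on the zero line mark libraries with no peak listed, not a measured zero. At S3 the IMR90 standard points of both treatments overlap, whereas at S1 and S4 they do not.

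S5 (chr9:21965556-21965964) had no peak in any LNCaP library. It lay 2037 bp beyond the end of CDKN2A and 9142 bp from the p16 start, the nearest CTCF position to p16 in any experiment. In IMR90 it measured 13.4 and 14.9 with control siRNA, and with CTCF siRNA a peak of 6.50 was listed in replicate 1 only. S10 (chr9:22100728-22101042), in an intron of CDKN2B-AS1, was likewise listed in IMR90 control libraries only, at 9.14 and 9.24. S9 measured 10.2 and 12.7 and S11 measured 5.45 and 7.30 in the IMR90 control libraries. None of S9, S10 and S11 had a peak after CTCF siRNA. The positions seen in 1 IMR90 control library only were S2 at 6.09, S7 at 5.96, S8 at 4.62 and S12 at 6.09. S2 lay over the first part of MTAP, 533 bp from its start. S4 and S5 were 151635 bp apart, and no CTCF peak of any library lay between them.

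The low-cell libraries gave a second view of IMR90. They held 5 control sites in the locus, from 6 and 5 peaks with control siRNA, and 0 and 0 peaks with CTCF siRNA (5.5 ± 0.707 against 0, n = 2, exact permutation p = 0.33). No site persisted, against 10.9% of 16863 control sites of this experiment. These lists went from 20383 and 19226 peaks to 5193 and 2057, and at equal length they held 0 and 1 peaks against 0 and 0. S1 measured 7.99 and 7.29, S3 measured 10.6 and 13.6, S4 measured 5.87 and 5.81, and S5 measured 6.65 and 5.12, each in both control libraries. S3 was thus the strongest site with this protocol, above 77.3% of the low-cell control sites. S6 at the CDKN2B start was next, at 8.97 and 9.91, although no standard IMR90 library listed a peak there. Such a site was 1 of 5 in the locus, against 5.8% of low-cell control sites with no peak in either standard control library. S11 was listed in control replicate 1 only, at 5.00. The IMR90 protocols therefore differed on whether S1, S3 and S4 remained after CTCF siRNA. The depletion in these cultures, the protocol and read depth, which the study gives as lower for the low-cell libraries, cannot be told apart.

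LNCaP and IMR90 shared most of the locus. Of the 6 LNCaP control sites, 5 were also standard IMR90 control sites, 83.3% against 72.5% genome-wide. Seen from IMR90, the shared sites were 5 of 7, 71.4% against 79.4%. The shared sites were S1, S3, S4, S9 and S11, while S6 was left to LNCaP and S5 and S10 to standard IMR90. S6 was, however, also a control site of the low-cell IMR90 libraries. Of the 5 shared sites 0 persisted in LNCaP, against 12.1% of shared sites of the genome, and 3 persisted in IMR90, against 62.2%. The study reported a stronger knockdown of CTCF mRNA in LNCaP than in IMR90 and used another transfection reagent for IMR90. Its single knockdown figure for IMR90 is not tied to the standard or to the low-cell libraries. By its account the standard IMR90 CTCF siRNA libraries also had more reads than those of LNCaP. Cell line, depth of knockdown, reagent, the second transfection described for LNCaP and read depth cannot be told apart here. Of the 5 low-cell control sites, 4 were standard IMR90 control sites, against 91.1% genome-wide. Every CTCF siRNA peak listed in the locus overlapped a control site, so no new position appeared in the window. This rests on 0 and 1 peaks in LNCaP and 4 and 3 in standard IMR90. The low-cell CTCF siRNA libraries listed 0 and 0. No genome-wide share is given for this overlap.

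The LNCaP histone marks were then read at these CTCF positions. H3K4me3 was listed at 12 consensus regions (overlapping regions of 2 or more of a mark's 4 libraries) and H3K27ac at 17. An LNCaP control CTCF site was held by 2 of each. Both of these H3K27ac regions were among the 12 of the locus listed in all 4 libraries. Genome-wide, 5110 of the 47362 H3K27ac regions of all 4 libraries held an LNCaP control CTCF site. For H3K4me3 no such share was computed. H3K4me3 regions covered 21600 and 23850 bases of the window with control siRNA and 18800 and 24200 with CTCF siRNA, and the groups overlapped (exact permutation p = 1). H3K27ac regions covered 34700 and 24250 bases against 32050 and 37850, which also overlapped (exact permutation p = 0.67). CTCF siRNA replicate 2 of H3K27ac had wider regions than the other libraries over the whole genome, with a median of 1700 bp against 1300 to 1350 bp, and its part in these widths was not tested. With Benjamini-Hochberg adjustment over the 8 permutation tests given here, the adjusted p was 0.53 for the 5 tests at 0.33, 0.77 for the 2 at 0.67, and 1 for the last.

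At S1 an H3K4me3 region (chr9:21789251-21790300) was listed in both control libraries, 1000 and 1050 bp wide, and in neither CTCF siRNA library. It lay over the CTCF peak, with no H3K27ac region beside it. It was the only consensus region of either mark in the locus with such a pattern, 1 of 12 for H3K4me3 against 2.55% of 45684 consensus regions and 0 of 17 for H3K27ac against 1.85% of 83272. H3K4me3 regions of this kind, with an LNCaP control CTCF site and no H3K27ac region, were listed in both control libraries alone in 7.1% of 1240 cases genome-wide and in both CTCF siRNA libraries alone in 8.47%. The CTCF library of CTCF siRNA replicate 2 still listed a peak at S1, while the H3K4me3 library of that number did not list the region. When only the lower-scored 50% of the lists was kept, the region was absent from the consensus.

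At S3 and S4 an H3K27ac region was listed in all 4 libraries and had its edge on the side of MTAP's start at a different place in the CTCF siRNA libraries. With control siRNA it ran from chr9:21813051 and chr9:21813151, inside the S3 peak, to 21814150 and 21814100, inside the S4 peak. With CTCF siRNA it began at chr9:21811351 and chr9:21811551 and ended at the same bases as before. Its widths were 1100 and 950 bp against 2800 and 2550 bp, without overlap. Of the 47362 H3K27ac regions of all 4 libraries, 46.9% were likewise wider in both CTCF siRNA libraries. In the locus 3 of 12 were. The added stretch reached over TUBB8P1, a processed tubulin pseudogene in the intron, and held no CTCF peak of any library beyond S3. This region was singled out after its values were seen. A region that reached at least 1000 bp further on one side in both CTCF siRNA than in both control libraries was found in 3.41% of 47362 H3K27ac regions of all 4 libraries, and in 6.13% of the 5110 of them that held an LNCaP control CTCF site. No H3K4me3 region was listed at S3 or S4.

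**Figure D3:**
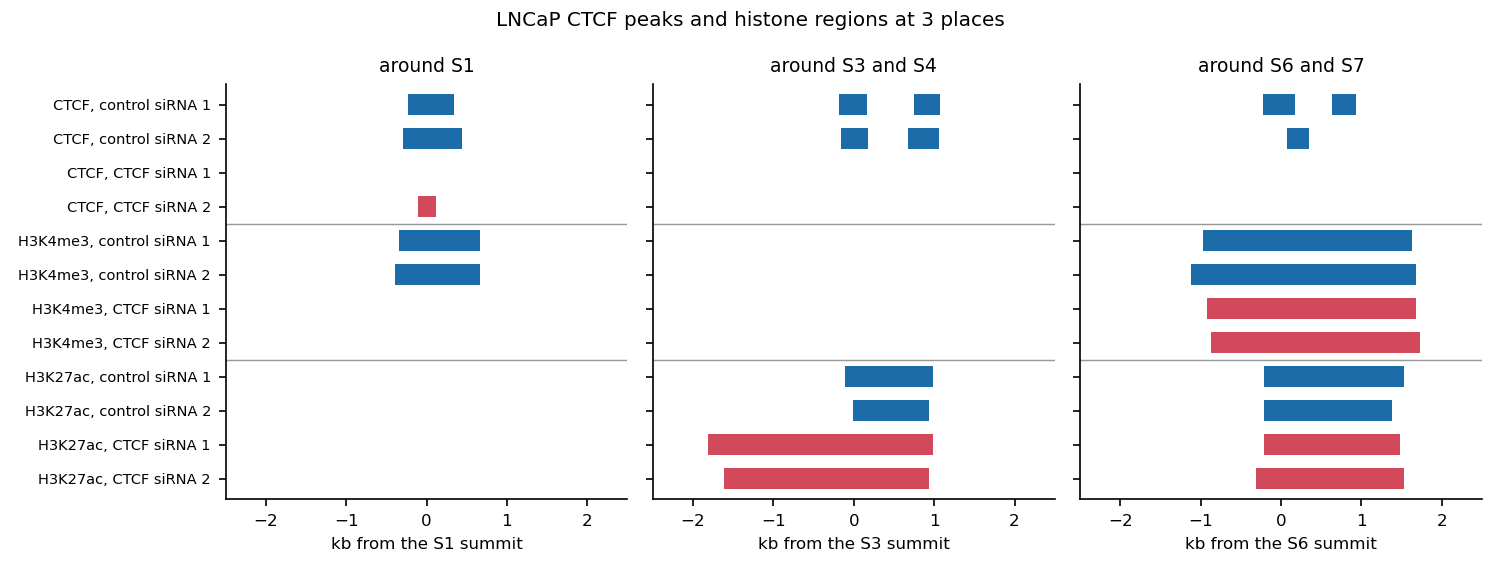
LNCaP CTCF peaks and histone regions in each library around S1, around S3 and S4, and around S6 and S7, by distance in kb from the summit of S1, S3 or S6 and shown to 2.5 kb on each side. Blue bars are control siRNA and red bars CTCF siRNA libraries. The H3K4me3 region at S1 is listed in the control libraries only, the H3K27ac region at S3 and S4 extends to the left in the CTCF siRNA libraries, and both marks at S6 and S7 stay in place.

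The starts of p16, ARF, CDKN2B, CDKN2B-AS1 and MTAP each had H3K4me3 and H3K27ac within 1000 bp in all 4 LNCaP libraries. The share of protein-coding starts in this state was 63.8% for H3K4me3 and 52.6% for H3K27ac. No promoter of the locus thus gained or was without a mark in either treatment by this measure.

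p16, the inhibitor of CDK4 and CDK6, had a full H3K4me3 region and a small H3K27ac region. H3K4me3 (chr9:21973801-21976600) covered its start in every library, at 2500 and 2750 bp with control siRNA and 2450 and 2600 bp with CTCF siRNA, and the groups overlapped. H3K27ac (chr9:21974801-21976050) was 550 and 550 bp wide with control siRNA, the narrowest width in those lists, and 750 and 1200 bp with CTCF siRNA. The widths did not overlap, but 46.9% of H3K27ac regions of all 4 libraries were wider in both CTCF siRNA libraries, and in the locus 3 of 12 were. Both control regions stopped short of the p16 start, 345 and 45 bp upstream of it. With CTCF siRNA the region of replicate 1 stopped 445 bp upstream and that of replicate 2 ran 55 bp past the start, so that the start base itself was covered in 1 of 4 libraries.

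CDKN2B, which encodes p15INK4b, was close to p16 in H3K4me3 width and wider in H3K27ac. Its H3K4me3 region (chr9:22007651-22010500) measured 2600 and 2800 bp with control siRNA and 2600 and 2600 bp with CTCF siRNA. Its H3K27ac region (chr9:22008451-22010300) measured 1750 and 1600 bp against 1700 and 1850 bp. The groups overlapped for both marks. In each of the 4 libraries the H3K27ac region was wider at CDKN2B than at p16. H3K4me3 spanned S6 and S7, while H3K27ac began within S6 and covered S7, and both marks were listed at this start in the CTCF siRNA libraries, where no CTCF peak was.

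ARF and CDKN2B-AS1, whose starts face away from each other, shared one region of each mark, the widest of the locus. H3K4me3 (chr9:21990751-21996750) covered 5800 and 5900 bases with control siRNA and 5250 and 5600 bases with CTCF siRNA, fewer in both. In 3 of the 4 libraries it was split in 2, with the smaller piece on the p16 side, and in control replicate 2 it was 1 piece. H3K27ac (chr9:21990951-21996650) covered 5550 and 3750 bases against 4400 and 5200, which overlapped. No CTCF peak of any library lay within these regions.

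MTAP's promoter was the other place where H3K4me3 was narrower in both CTCF siRNA libraries. Its region (chr9:21801151-21804950) measured 3650 and 3800 bp with control siRNA and 3600 and 3550 bp with CTCF siRNA, a gap of 50 bp between the groups. All histone region widths in the window were multiples of 50 bp, so this gap was the smallest that could be seen. H3K4me3 regions of all 4 libraries were thus narrower in both CTCF siRNA libraries at 2 of 6 in the locus, against 5.89% of 26897, and wider in both at 0 of 6, against 16.4%. H3K27ac at MTAP (chr9:21801251-21804500) measured 3100 and 2950 bp against 3000 and 3200 bp, which overlapped. For H3K27ac no region of the locus was narrower in both, against 4.1% genome-wide.

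**Figure D4:**
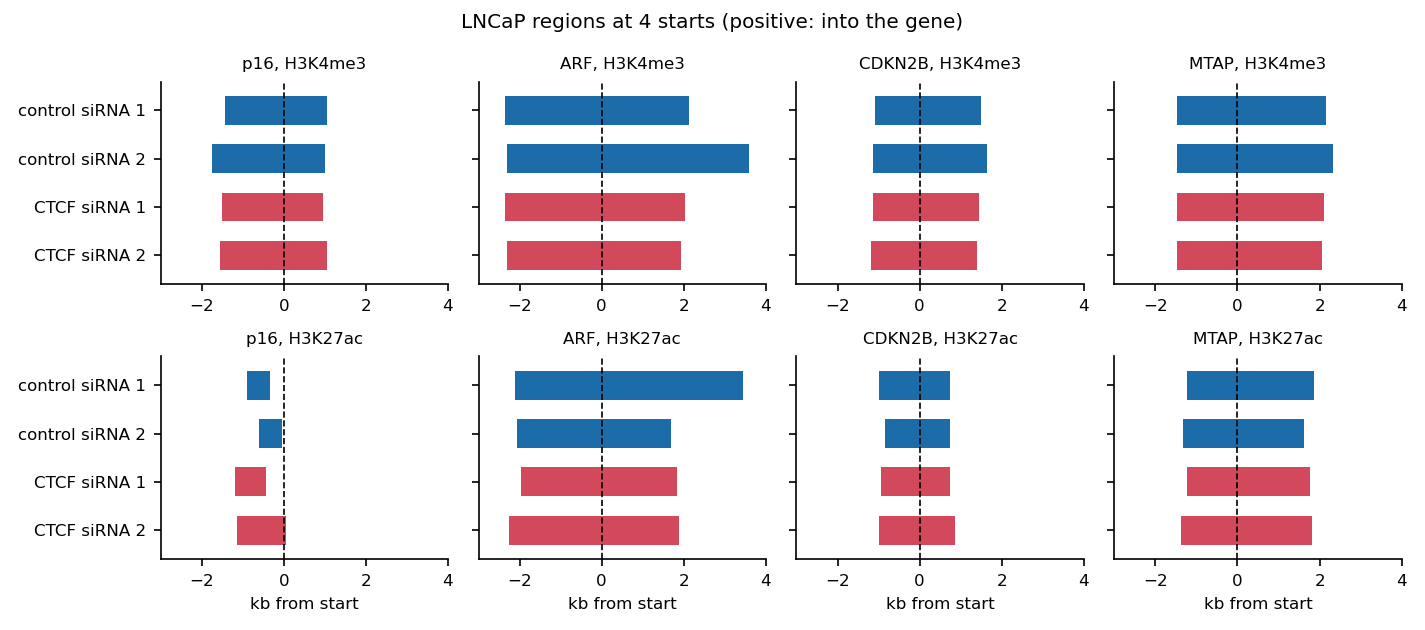
LNCaP H3K4me3 (top) and H3K27ac (bottom) regions at the starts of p16, ARF, CDKN2B and MTAP in each library, in kb from the start (dashed line), with positive values into the gene. Blue bars are control siRNA and red bars CTCF siRNA libraries, and only the piece within 1000 bp of the start is drawn. The H3K27ac region at p16 lies upstream of the start in 3 libraries and crosses it in CTCF siRNA replicate 2.

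Over the whole window, starts included, 6 of the 12 H3K4me3 and 12 of the 17 H3K27ac consensus regions were listed in all 4 libraries, against 58.9% and 56.9% genome-wide. By its merged extent, the widest H3K27ac region that touched no start was in the CDKN2A intron between the p16 and ARF starts (chr9:21985851-21989050), with 2700 and 2000 bases against 2050 and 3150. H3K4me3 was listed at the same place (chr9:21986401-21989050) at 2200 and 2600 bp against 2300 and 2500 bp, and was by merged extent the widest H3K4me3 region away from a start. Within CDKN2B-AS1 both marks were listed together at chr9:22040101-22043250, where H3K27ac measured 2900 and 2300 bp against 2400 and 3000 bp, more than in the CDKN2A intron in 3 of the 4 libraries, and H3K4me3 measured 1950 and 2000 bp against 2050 and 1950 bp. In all 4 comparisons the groups overlapped.

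One H3K27ac region was listed in both CTCF siRNA and neither control library. It lay in CDKN2B-AS1 (chr9:22106851-22108000), at 850 and 1150 bp, and held no CTCF position. It was 1 of 17, against 13.2% of H3K27ac consensus regions, and it was no longer in this class when the lists were shortened to equal length. For H3K4me3 no such region was found among 12, against 6.44% genome-wide.

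The partners of p16, ARF and p15 in the cell cycle were read from a list of 21 genes of cell cycle control, among them CDK inhibitors, cyclins, RB and E2F proteins. All 21 starts had H3K4me3 in all 4 LNCaP libraries, and 17 had H3K27ac in all 4. Among protein-coding starts the shares were 63.8% and 52.6%. CDKN1C, which encodes the CDK inhibitor p57, CCND2, which encodes cyclin D2, and CDK6, a kinase that p16 inhibits, had H3K4me3 in all 4 and H3K27ac in none, a state of 7.36% of protein-coding starts. CCNE2, which encodes cyclin E2, had H3K27ac in both CTCF siRNA and neither control library, a state of 1.42% of starts. An LNCaP CTCF control site, a state of 10.1% of protein-coding starts, was found at the start of E2F3. This site of E2F3, a transcription factor held by RB, was not persistent.

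Polycomb proteins and the opposing demethylase KDM6B are known regulators of this locus. All 9 genes of that list had H3K4me3 in all 4 libraries and 6 had H3K27ac in all 4, against 63.8% and 52.6% of protein-coding starts. RNF2, a catalytic subunit of the ubiquitin ligase complex, had H3K27ac in both CTCF siRNA and neither control library, while BMI1 and CBX7 had it in 1 library of each treatment. KDM6B held the only CTCF control site of the list, while 10.1% of protein-coding starts held one in LNCaP. The KDM6B site was persistent in standard IMR90 and not in LNCaP or low-cell IMR90. As a check of the LNCaP label, all 7 luminal prostate genes had both marks in all 4 libraries. Of 7 fibroblast genes 1 had H3K4me3 and 0 had H3K27ac in all 4. The fibroblast starts were not all bare, as only 2 had H3K4me3 in no library and 4 had H3K27ac in none. THY1 had H3K4me3, and COL1A1 had H3K27ac, in 1 control and 2 CTCF siRNA libraries. IMR90 had no histone libraries here, so its label could not be checked in this way.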

How the data were processed

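ChIP-seq lists of 20 libraries were used. The authors used Bowtie 1.1.0 (hg19, at most 3 mismatches) for standard libraries and called CTCF peaks per library with MACS2 2.1.0 at an FDR of 0.05 (low-cell libraries: BWA, MACS2 2.1.2) and histone regions with PeakRanger. In the deposited CTCF lists each peak has a fold enrichment (a ratio to local background) and −log10 p-values and q-values. The score of the deposited histone regions has no stated meaning in the sources used here. For ranking, low scores were put first.

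Peaks were merged by an overlap of at least 1 bp. Genes came from GENCODE release 44 on hg19, and coordinates count from 1. Python 3.11.15, numpy 2.4.6, pandas 2.3.3, pyfaidx 0.9.0.4 and matplotlib 3.10.9 were used. Scripts were tested on simulated data. Two-sided exact permutation tests compared libraries. Every control site was named, with each region at a start, the widest other region of each mark, regions listed in both libraries of 1 treatment alone, and listed genes whose CTCF state or marks differed. Members and gene lists were chosen with earlier results of these data known. Alternatives were a q-value of at most 0.001, lists of equal length, overlaps of 50% or summits within 100 bp, other motif, promoter and merging limits, the replicate number as a block, and leaving out each replicate. Replicate numbers give 2 pairs at most, and no source says that they mark a shared batch. Read depths entered no count or test, and expression and Hi-C were not used here. The sequence of 1 motif match and the CTCF state of 1 listed gene are not reported here. A listed region passed a threshold, so absence of a peak gives no measure of how far binding fell.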

Additional observations from a re-analysis of the deposited data

How the results depend on the processing

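With 168 values recomputed under the alternatives, 150 kept their direction or stayed within 1.5 times, 16 moved and 2 reversed. The 150 include values that could not change. The replicate number as a block alters only the p-value, not the difference. Lists of equal length left 0 control sites of LNCaP and of low-cell IMR90 in the window, which fixed their persistent counts at 0. With lists of equal length, the difference in LNCaP CTCF peaks (-6) became 0 and the H3K27ac regions in both CTCF siRNA and neither control library went from 1 to 0. A peak in either library gave 1 persistent LNCaP site, of 7, against 14.8% genome-wide. Among the 50% of regions with the lowest score per list, 6 H3K4me3 and 10 H3K27ac consensus regions remained, and the H3K4me3 regions in both control libraries alone went to 0. Regions found in at least 3 libraries numbered 7 for H3K4me3. With up to 1 mismatch the motif was found at 3 of 7 IMR90 control sites. The cause was not tested.

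Leaving out 1 library gave 0 to 1 persistent LNCaP sites. H3K4me3 regions in both control libraries alone ranged from 0 to 1 and those in both CTCF siRNA libraries alone from 0 to 1. For H3K27ac they ranged from 0 to 1 and from 0 to 5, with 5 without control siRNA replicate 1. The H3K4me3 covered length difference ranged from -3925 to 1475 bases, reversing without CTCF siRNA replicate 1. That of H3K27ac (5475) ranged from 250 bases without control siRNA replicate 2 to 10700 without control siRNA replicate 1. The S3 difference in IMR90 ranged from -7.38 to 0.036, reversing without control siRNA replicate 2. The replicate number as a block left every difference as it was (-6 for LNCaP peaks), and its exact sign-flip permutation p was 0.50, the smallest that 2 pairs can give, for 5 of the 8 tests and 1 for the other 3.

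The lists give no read depth, and 2 libraries a group limit every test.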
